A study of Rattus norvegicus with 60 samples.

Results

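The genes described here are 33 members of the complement system, chosen by name: components of the classical, lectin, alternative and terminal pathways, receptors for the fragments they release, and proteins that hold the cascade in check. A member was followed where the array had a probe set annotated with that 1 symbol alone. This gave 26 of the 33 members, each with 1 probe set, out of 18166 genes named in this way and 36685 probe sets in all. The probe sets of C4a and C4b carry both symbols and were not assigned to either gene, and C2, Cfi, C5ar1, C5ar2 and Cd59 had no entry under these names in the annotation used here.

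The values came from rats with haemophilia A, the inherited lack of working clotting factor VIII. A bleed had been induced in the left knee of 11 rats, and 9 other rats of the same kind had gone through a sham procedure. Tissue from inside the joint and the popliteal node behind the knee, a lymph node of the lower limb, were collected 24 h later from the bled and from the right (contralateral) side of each bled rat, and from the right side of the sham rats. This gave 11 bled, 11 contralateral and 7 sham knees, since RNA was too scarce in 2 sham knees, and 11, 11 and 9 nodes, with 1 array per sample. Bled tissue was always left and the compared tissue always right, so body side and bleed cannot be told apart. All rats carried the disorder, so none of the comparisons is with rats that clot normally. Samples of a group came from separate animals, per the labels.

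Complement is a cascade of plasma proteins that tags and lyses targets and calls in leukocytes. The classical pathway starts when C1q binds immune complexes, dying cells or other surfaces and activates the proteases C1r and C1s, the lectin pathway starts from ficolins and collectins with the MASP proteases, and the alternative pathway amplifies deposition of C3b through factor B and properdin. All of them converge on C3 and C5 and on the membrane attack complex of C5b, C6, C7, C8 and C9. The liver supplies most of the plasma pool, while macrophages are a main source of C1q and fibroblast-like synovial cells and other stromal cells make C1r, C1s, C3 and several regulators locally.

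Values are log2 expression after robust multi-array averaging, so a difference of 1 is a 2-fold change, and levels are compared between samples for 1 gene and not between genes. A probe set is called changed at a Benjamini-Hochberg adjusted p under 0.05 over all 36685 probe sets in limma's moderated test of the 3 groups of a tissue. Array medians lay between 5.64 and 5.94. In the tissue check, Prg4, the lubricin gene of synovial lining and cartilage, lay between 12.92 and 13.41 in the knees and between 7.09 and 10.26 in the nodes. Cd3e, a T cell gene, lay between 9.74 and 10.63 in the nodes and between 5.38 and 7.86 in the knees. Sham knee C5 and sham nodes C2 and C9 (numbers of sham rats, not complement genes) were least like their groups. No member call was lost by leaving out knee C5 or node C9. Without node C2 the fall of Cd46 in the contralateral node was lost, as given with that gene.

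Most of the measured members were lower in the bled knee 24 h after the bleed. Against the contralateral knee, 16 of the 26 members fell and 2 rose, and 9 of the falls and both rises were at least 2-fold. The falls took in all 5 measured classical pathway genes, all 6 regulators, Fcna and Colec12 of the lectin group, and C6, C7 and C8g of the terminal pathway. The rises were in Cfp, which encodes properdin, and C3ar1, the receptor for the anaphylatoxin C3a. Over all probe sets 15.2% fell and 19.5% rose in this comparison, and among genes with 1 symbol 23.3% fell and 25.9% rose. Other shares given here are of all probe sets, with or without a symbol. They were not worked out for genes with 1 symbol, which the members are. The median difference was −0.78 over the members and 0.00 over all probe sets. At 2-fold or more, 3.52% of all probe sets fell and 3.27% rose. Values of 14 members did not overlap between the 11 bled and 11 contralateral knees, as was the case for 13.5% of all probe sets. Because whole tissue was measured, fewer cells of a type and less RNA per cell cannot be told apart.

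**Figure D1:**
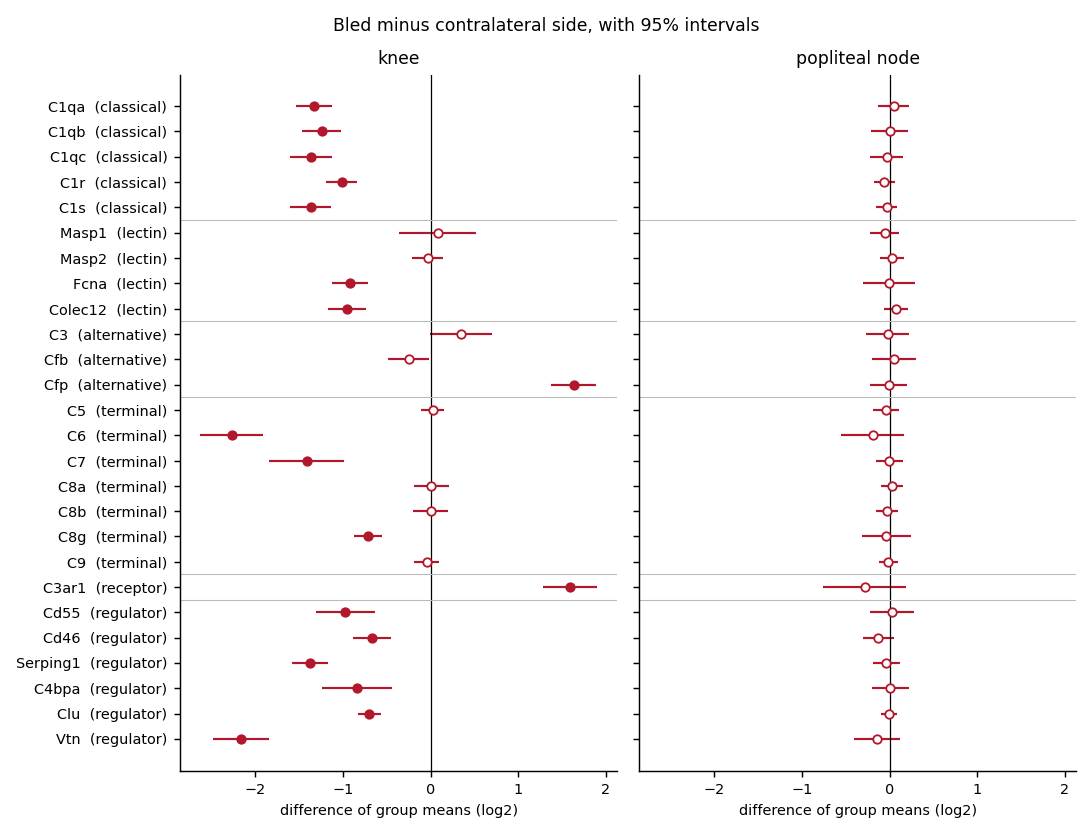
Difference of group means between the bled and contralateral side on the log2 scale for the 26 measured complement genes, ordered by role, in knee (left) and popliteal node (right), with 95% intervals from limma. Filled points passed an adjusted p of 0.05: 18 lie away from 0 in the knee, from −2.27 (C6) to 1.63 (Cfp), and none in the node.

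The stretches of DNA ahead of 5 of these genes are shown: Cfp and C3ar1, the 2 genes that rose, and C1qa, C1qb and Vtn, which fell at least 2-fold and whose promoters held a searched motif. This choice was made with the values and matches known, and C6, the member that fell most, held none of the motifs. The sequences are RefSeq's, on build GRCr8, and cover the 250 bases before the annotated start, 5′ to 3′ along the gene. Capitals mark matches to the motifs named in the sentences after them.
C3ar1 promoter, chr4:157756531-157756780, minus strand: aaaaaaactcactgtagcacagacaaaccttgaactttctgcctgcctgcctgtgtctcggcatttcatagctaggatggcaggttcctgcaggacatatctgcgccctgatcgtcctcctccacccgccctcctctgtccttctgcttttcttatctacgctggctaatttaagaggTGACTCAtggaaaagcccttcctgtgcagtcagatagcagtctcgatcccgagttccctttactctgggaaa
Cfp promoter, chrX:3715301-3715550, plus strand: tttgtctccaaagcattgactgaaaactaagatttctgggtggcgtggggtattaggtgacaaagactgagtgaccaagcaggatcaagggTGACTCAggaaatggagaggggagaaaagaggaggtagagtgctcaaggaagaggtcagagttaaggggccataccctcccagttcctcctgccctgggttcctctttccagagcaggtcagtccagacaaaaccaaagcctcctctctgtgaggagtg
C1qa promoter, chr5:154419934-154420183, minus strand: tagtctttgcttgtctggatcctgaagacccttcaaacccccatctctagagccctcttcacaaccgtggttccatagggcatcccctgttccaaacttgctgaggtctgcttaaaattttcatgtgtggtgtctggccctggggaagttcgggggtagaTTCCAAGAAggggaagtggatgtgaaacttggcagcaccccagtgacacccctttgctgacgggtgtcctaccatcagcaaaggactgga
C1qb promoter, chr5:154407828-154408077, minus strand: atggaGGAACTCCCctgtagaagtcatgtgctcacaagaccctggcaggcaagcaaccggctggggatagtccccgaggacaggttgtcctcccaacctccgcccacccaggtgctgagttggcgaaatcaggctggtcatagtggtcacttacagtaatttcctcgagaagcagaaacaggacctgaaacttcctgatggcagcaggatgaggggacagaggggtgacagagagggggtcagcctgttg
Vtn promoter, chr10:63892532-63892781, plus strand: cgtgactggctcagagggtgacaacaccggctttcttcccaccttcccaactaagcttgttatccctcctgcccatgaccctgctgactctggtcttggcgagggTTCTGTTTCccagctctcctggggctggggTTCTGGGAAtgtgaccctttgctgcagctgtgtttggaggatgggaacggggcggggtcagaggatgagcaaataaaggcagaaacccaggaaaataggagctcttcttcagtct
RefSeq's table held promoters of 17 of the 26 measured members, and matches were sought on both strands from 250 bases before to 50 after the start. The AP-1 motif TGANTCA stood at −72 to −66 in C3ar1 and at −159 to −153 in Cfp, and also in Cd46, which fell. It was found in 3 of the 17 members and in 7.33% of 33469 promoters of that length. The STAT motif TTCNNNGAA stood at −90 to −82 in C1qa and at −115 to −107 in Vtn, and was found in 3 of 17 members against 8.87% of all promoters. The first capitals in Vtn, at −145 to −137, match the interferon response motif GAAANNGAA on the other strand, which 9.71% of promoters and 1 member held. The NF-kB motif GGGANTTCC stood on the other strand at −245 to −237 in C1qb, alone of the 17, and in 1.64% of promoters, and the C/EBP motif TTGCGNAA was in C3 alone and in 0.846%. None of these motifs overlapped another in the 5 sequences printed, and a match is only a match of letters.

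C1qa, C1qb and C1qc encode the A, B and C chains of C1q, the recognition part of the classical pathway. C1qa ran from 10.77 to 11.25 in the contralateral knees (median 11.15), from 10.31 to 11.06 in sham knees (median 10.84), and from 9.51 to 10.31 in bled knees (median 9.65). Every bled knee lay below every contralateral knee, and the highest bled knee equalled the lowest sham knee. C1qa was 2.50-fold lower than in the contralateral knee (95% interval 2.17 to 2.89, adjusted p = 2.67e-12) and 1.95-fold lower than in sham (1.66 to 2.29, adjusted p = 3.22e-08). C1qb fell by 1.24 ± 0.11 (SE) and C1qc by 1.37 ± 0.12 against the contralateral side on the log2 scale, and each of the 3 chains was lower on the bled side of all 11 rats.

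The 3 C1q genes lie side by side in the RefSeq gene table, in the order C1qb, C1qc, C1qa, with no other protein-coding gene between them. Across the 11 bled knees their levels moved together, with Pearson's r of 0.937 for C1qa and C1qb (Spearman's rho 0.975, permutation adjusted p = 0.0002 and 0.0001), 0.928 for C1qa and C1qc and 0.967 for C1qb and C1qc. Without the 2 knees farthest from the median of the first gene, r was 0.851, 0.869 and 0.955. In the contralateral knees, where the genes varied less, r was 0.631 for C1qa and C1qb, with a rho of 0.416 (permutation adjusted p = 0.0298 and 0.213), and r was 0.458 without the 2 farthest knees. There C1qa and C1qc gave r = 0.799 and rho = 0.596 (0.0103 and 0.0704; 0.495 without 2), and C1qb and C1qc gave r = 0.823 and rho = 0.795 (0.00175 and 0.00862; 0.821 without 2). In the nodes of both sides r lay between 0.819 and 0.981. These are 12 of 20 relations computed, between genes that share a locus and were read on the same arrays.

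C1r and C1s, neighbours in the genome, encode the 2 proteases of the C1 complex. C1s ranged from 11.10 to 11.63 (median 11.31) in contralateral, from 10.71 to 11.14 (median 10.92) in sham and from 9.44 to 10.64 (median 9.95) in bled knees. The bled knees overlapped neither of the other groups. C1s was 2.58-fold lower than on the contralateral side (2.19 to 3.03, adjusted p = 2.25e-11) and 1.92-fold lower than in sham (1.60 to 2.31). C1r, from 11.96 to 12.38 in contralateral and from 10.87 to 11.63 in bled knees, was 2.02-fold lower (1.79 to 2.28) and also showed no overlap with either group. Across the bled knees the levels of C1r and C1s correlated with r = 0.933 and rho = 0.9 (permutation adjusted p = 0.000222 and 0.0015; r = 0.835 without the 2 farthest knees).

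The inhibitor of these proteases fell as well. Serping1 encodes C1 inhibitor, a serpin that blocks C1r, C1s and the MASP proteases, and also kallikrein and factor XIIa of the contact system. It ranged from 11.60 to 12.04 (median 11.74) in contralateral, from 11.04 to 11.73 (median 11.39) in sham and from 9.88 to 10.92 (median 10.23) in bled knees. The bled knees lay below all others. Serping1 was 2.60-fold lower than on the contralateral side (2.26 to 2.99, adjusted p = 7.99e-13) and 1.96-fold lower than in sham (1.68 to 2.30, adjusted p = 1.72e-08). On the log2 scale the differences from the contralateral side were −1.01 for C1r, −1.37 for C1s and −1.38 for Serping1.

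**Figure D2:**
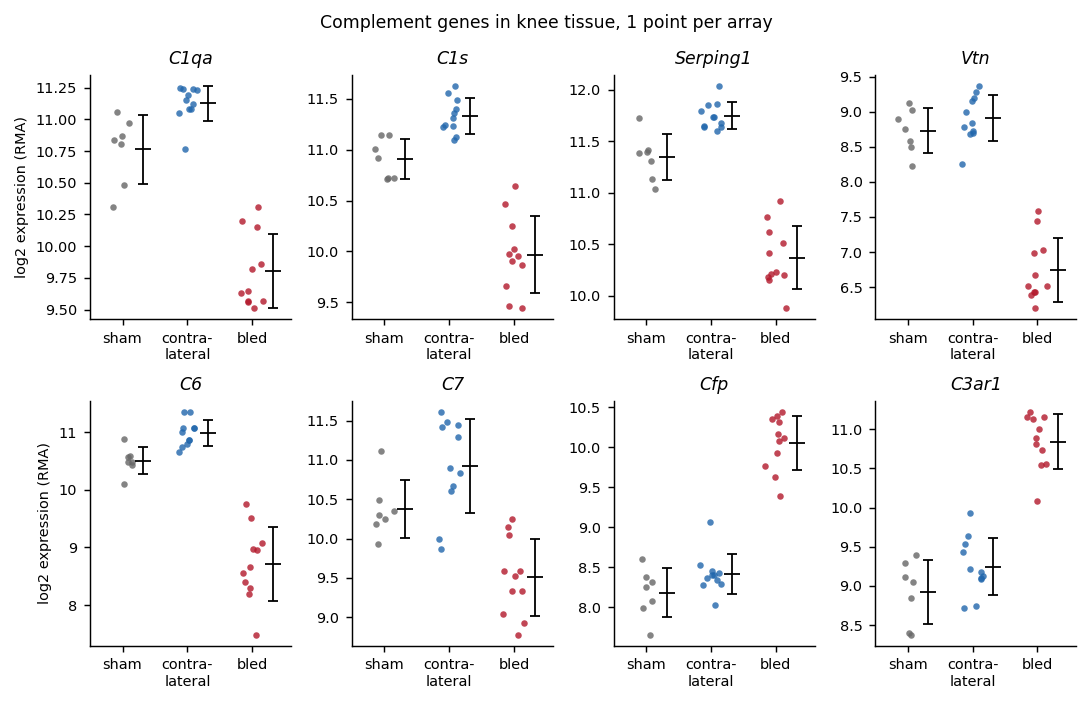
Log2 expression of 8 complement genes in knee tissue, 1 point per array, with mean and SD beside each group (7 sham, 11 contralateral, 11 bled); each panel has its own vertical range. In the bled knees C1qa, C1s, Serping1, Vtn and C6 lie below all contralateral knees, C7 overlaps them, and Cfp and C3ar1 lie above all others.

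The genes grouped here under the lectin pathway split. Fcna, encoding ficolin-A, which binds sugars on microbes and damaged cells, fell 1.89-fold (1.64 to 2.17), with values of 8.56 to 9.08 in contralateral and 7.77 to 8.42 in bled knees. Colec12, a membrane-bound collectin and scavenger receptor, fell 1.94-fold (1.67 to 2.25), with 10.36 to 10.81 in contralateral and 8.92 to 10.31 in bled knees. Both were lower on the bled side of all 11 rats, with no overlap between the sides. Masp1 and Masp2 encode the proteases that act with ficolins and collectins. Masp1 differed by 0.08 ± 0.21 (95% interval −0.36 to 0.52) and Masp2 by −0.03 ± 0.08 (−0.21 to 0.14), and neither was called. Masp2 was dim, at 5.60 to 6.28 in contralateral and 5.78 to 6.36 in bled knees, near the array medians. A change in it could thus be missed. Masp1 varied most among sham knees, from 7.75 to 9.56. Its highest values there came from rats C6 and C9, where the mean of 5 skeletal muscle genes was also highest, at 12.95 and 13.09. With that mean as a covariate Masp1 was not called in any knee comparison either.

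Of the alternative pathway, properdin rose, factor B was not called and C3 depended on the comparison. Properdin, made mostly by neutrophils, monocytes and T cells, binds and stabilises the convertase that cleaves C3. Cfp ranged from 8.03 to 9.07 (median 8.40) in contralateral, from 7.66 to 8.60 (median 8.26) in sham and from 9.39 to 10.44 (median 10.11) in bled knees. All bled knees lay above all others. Cfp was 3.10-fold higher than on the contralateral side (2.60 to 3.70, adjusted p = 2.91e-12) and 3.64-fold higher than in sham (2.98 to 4.45). It was higher in all 11 rats, by 1.23 to 2.41 in 10 of them and by 0.32 in rat K2.

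C3, the hub of the cascade, ranged from 7.20 to 9.41 (median 7.80) in contralateral, from 7.18 to 7.96 (median 7.68) in sham and from 7.87 to 8.69 (median 8.44) in bled knees. Bled values overlapped both groups. Against sham C3 rose 1.73-fold (1.31 to 2.29, adjusted p = 0.00164). Against the contralateral side the difference was 0.35 ± 0.17 (−0.01 to 0.70, adjusted p = 0.138), with higher values on the bled side in 9 of 11 rats. The highest contralateral value came from rat K10, in whose contralateral knee the mean of 9 neutrophil genes was 8.65, against 6.21 to 6.94 in the other 10. Without that array the difference was 0.48 with an adjusted p of 0.00512 (range over all alternatives 0.00512 to 0.264); the part of leukocytes in that C3 value was not tested.

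Cfb encodes factor B, the protease of the alternative convertase. It ranged from 9.30 to 10.31 in contralateral, from 9.07 to 9.78 in sham and from 9.19 to 10.14 in bled knees, so that all groups overlapped. The difference from the contralateral side was −0.25 ± 0.11 (−0.48 to −0.02, adjusted p = 0.0961). With rat as a fixed block it was called, at the same size, with an adjusted p of 0.0239 (range over alternatives 0.0233 to 0.19). It was lower on the bled side in 10 of 11 rats.

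Terminal pathway genes gave both the greatest fall among the members and the dimmest signals. C6, which joins C5b to start the membrane attack complex, ranged from 10.65 to 11.35 (median 11.00) in contralateral, from 10.10 to 10.88 (median 10.49) in sham and from 7.49 to 9.76 (median 8.66) in bled knees. The bled knees lay below all others. C6 was 4.82-fold lower than on the contralateral side (3.76 to 6.19, adjusted p = 4.54e-12) and 3.46-fold lower than in sham (2.60 to 4.59, adjusted p = 1.06e-08), and its differences within a rat ran from −3.58 in K8 to −1.10 in K10. C7, which binds next and anchors the complex in the membrane, was 2.67-fold lower than on the contralateral side (1.99 to 3.58, adjusted p = 1.21e-06). Its values of 9.87 to 11.61 in contralateral and 8.78 to 10.25 in bled knees overlapped. C7 was lower on the bled side in all 11 rats, by little in K1 (−0.28) and K10 (−0.36) and most in K2 (−2.55). Against sham, at 9.93 to 11.12, the fall of C7 was smaller, 1.83-fold (1.31 to 2.55, adjusted p = 0.00347), with overlap. Contralateral knees differed from sham by 0.55 ± 0.24 in C7 (adjusted p = 0.248), not called.

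C6 and C7 lie near each other, with 1 protein-coding gene between them in the RefSeq table. Their levels across the bled knees gave r = 0.282 and rho = 0.437 (permutation adjusted p = 0.401 and 0.197), and r = 0.691 without the 2 farthest knees. In the contralateral knees they gave r = −0.528 and rho = −0.384 (permutation adjusted p = 0.0996 and 0.242; r = −0.38 without 2), and in bled-side nodes r = 0.541 and rho = 0.491 (0.0976 and 0.152; 0.238 without 2). In contralateral nodes r was 0.704 and rho 0.703 (permutation adjusted p = 0.0211 and 0.0301; 0.633 without 2). C8g, the lipocalin-like chain of C8, fell 1.64-fold (1.47 to 1.84), with 7.43 to 8.10 in contralateral and 6.82 to 7.07 in bled knees and no overlap. C5, C8a, C8b and C9 had group means under 5.64, the lowest array median, in all 6 groups of both tissues. Their differences between bled and contralateral knees lay between −0.05 (C9) and 0.03 (C5), and none was called.

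C3ar1, carried by neutrophils, macrophages and other cells that answer C3a, was the receptor that could be followed. It ranged from 8.72 to 9.93 (median 9.18) in contralateral, from 8.38 to 9.40 (median 9.05) in sham and from 10.09 to 11.22 (median 10.89) in bled knees. All bled knees lay above all others. C3ar1 was 3.02-fold higher than on the contralateral side (2.44 to 3.74, adjusted p = 2.80e-10) and 3.77-fold higher than in sham (2.96 to 4.81). The rise was seen in all 11 rats, from 0.99 in K2 to 2.43 in K6.

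The other regulators fell as well. Vtn encodes vitronectin, an adhesion protein of plasma and matrix that keeps forming attack complexes out of membranes. It ranged from 8.26 to 9.37 (median 8.84) in contralateral, from 8.23 to 9.13 (median 8.75) in sham and from 6.20 to 7.59 (median 6.52) in bled knees. The bled knees lay apart, 4.47-fold lower than the contralateral side (3.59 to 5.57, adjusted p = 8.15e-13) and 3.95-fold lower than sham (3.08 to 5.07). Clu, encoding clusterin, a chaperone that also binds the terminal complex, fell 1.62-fold (1.48 to 1.78), with 12.91 to 13.19 in contralateral and 12.07 to 12.66 in bled knees and no overlap.

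Cd55 and Cd46 encode membrane regulators of complement. Decay-accelerating factor takes convertases apart, and membrane cofactor protein, in its human form, helps factor I cleave C3b. Cd55 was 1.96-fold lower than on the contralateral side (1.56 to 2.48, adjusted p = 1.12e-05) and 2.79-fold lower than in sham (2.14 to 3.63). Sham knees, at 10.95 to 11.85, did not overlap the bled knees at 9.14 to 10.92, whereas contralateral knees, at 10.52 to 11.50, did. Cd46 fell 1.59-fold (1.37 to 1.85), with overlapping values of 6.04 to 6.98 in contralateral and 5.38 to 6.23 in bled knees. Its mean in bled knees, 5.83, lay within the range of the array medians. Cr1l, the gene next to Cd46 and outside the members, had means of 10.11 in contralateral and 9.94 in bled knees. C4bpa, the alpha chain of the C4b-binding protein, fell 1.79-fold (1.36 to 2.35, adjusted p = 0.000735) and was lower in 10 of 11 rats, K1 being higher by 0.21.

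**Figure D3:**
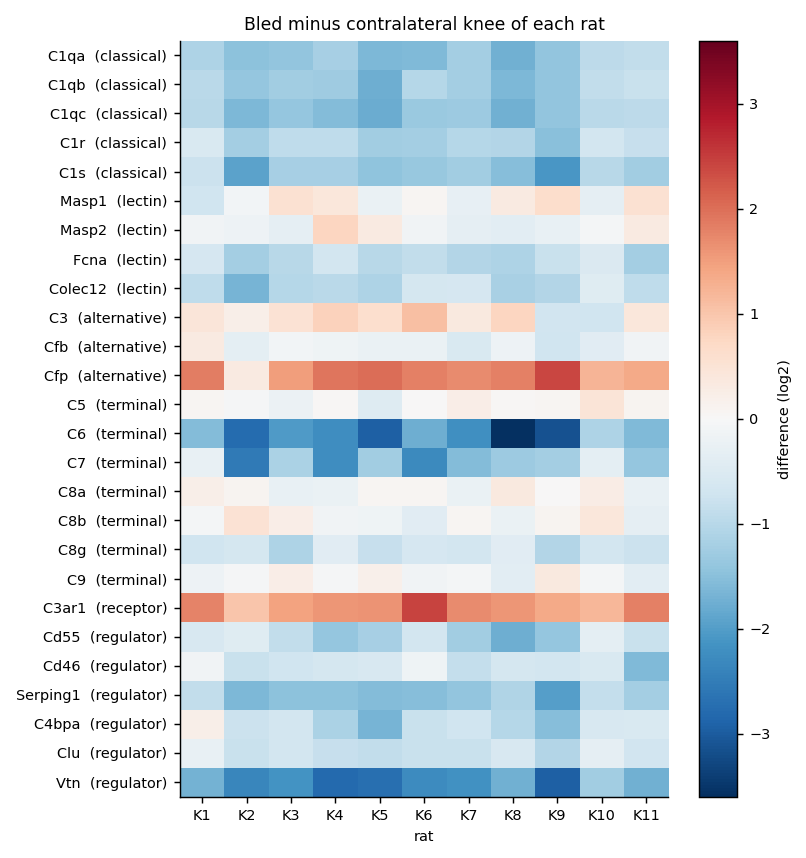
Log2 difference between the bled and the contralateral knee of each of the 11 rats (columns K1 to K11) for the 26 measured complement genes (rows, ordered by role); blue is lower and red higher on the bled side. Blue rows run unbroken across the classical genes, C6, C7, Serping1, Clu and Vtn, the differences are small in K1 and K10 for several of them, and Cfp is 0.32 in K2.

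Marker genes of cell types moved in the same comparison. The part of these cell types in the changes of the complement genes was not tested. All 9 adipocyte markers fell, with list means of 8.01 to 9.63 in bled and 11.01 to 11.63 in contralateral knees. All 4 endothelial markers fell (8.99 to 9.63 against 9.99 to 10.77), as did 6 of 9 synovial fibroblast markers, with 1 higher (11.17 to 11.76 against 11.54 to 12.06). Of 9 neutrophil markers 7 rose and 1 fell (7.54 to 10.03 against 6.21 to 8.65), and of 6 T cell markers 5 rose and 1 fell (7.51 to 8.03 against 6.49 to 7.29). Of 11 macrophage markers 5 rose and 3 fell (9.34 to 10.06 against 9.47 to 9.77). Those that rose were Cd14, Cd68, Csf1r, Mertk and Mrc1, those that fell were Adgre1, Lyve1 and Timd4, and Cd163, Folr2 and Marco were not called. None of 5 skeletal muscle markers was called (6.16 to 12.65 against 6.39 to 13.03), and with their mean as a covariate 16 members were lower and 2 higher, as without it. Equal counts do not show what part muscle had. Of 7 hepatocyte markers 2 fell (4.90 to 5.28 against 5.26 to 5.95).

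Set against sham, the bled knee again held more falls than rises: 16 members fell and 3 rose, where 18.8% of all probe sets fell and 19.9% rose. The third rise was C3. Values of 9 members did not overlap between bled and sham knees, where those of 14.6% of all probe sets did not. Of the members 2 rose and 4 fell at least 2-fold, where 4.03% of all probe sets rose and 3.6% fell that far. The smallest called fall was that of C4bpa, by 0.57 ± 0.22 (adjusted p = 0.0388), which missed the threshold without any 1 of 8 arrays (bled K3, K4, K6 or K9, sham C2, C6, C7 or C9; adjusted p = 0.0598 to 0.1) and with arrays centred on their medians (0.0993; range over alternatives 0.00833 to 0.1). Centring moved the share of rises among called probe sets from 51.4% to 63.6% in this comparison. Both comparisons of the bled knee use the same bled arrays.

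Between the contralateral and sham knees no member was called in limma's test, where 0.984% of all probe sets rose and 0.831% fell. At an unadjusted p under 0.05, 11 members were higher and 1 lower, against 7.39% and 8.42% of all probe sets. The nearest were Serping1 at 0.40 ± 0.11 (adjusted p = 0.057), C1s at 0.42 ± 0.13 (0.0881) and C1qa at 0.36 ± 0.11 (0.096). Serping1 passed without bled knee K1, K9 or K10 or sham knee C3, and under 5 other settings (adjusted p 0.0238 to 0.148 over all alternatives). Cd55 was the 1 member lower at an unadjusted p under 0.05, at −0.51 ± 0.19 (adjusted p = 0.163). The median over members was 0.22, against −0.02 over all probe sets. With arrays centred on their medians, rises made up 74.5% of the called probe sets in place of 54.2%.

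In the popliteal node no member passed the threshold between the sides of the bled rats. None of 26 was called in limma's test, as none of all probe sets was (0% higher and 0% lower). This fit did not pair the nodes of a rat. In it no member passed an unadjusted p of 0.05, which 2.34% of all probe sets did. Intervals of the same unpaired fit bound the differences: C1qa differed by 0.05 (−0.13 to 0.22), Serping1 by −0.04 (−0.19 to 0.12), Cfp by −0.01 (−0.22 to 0.20) and C6 by −0.19 (−0.55 to 0.17). C3ar1 had the widest interval, −0.29 (−0.76 to 0.19). Within rats, C6 was higher on the bled side in 1 of 11 and lower in the others. It was not called with rat as a block either (adjusted p 0.845 or more in limma over all alternatives). Unadjusted p values of the fits with rat as a block are not given here. The difference between the side effects of knee and node, tested in a model of all 60 arrays, was called for 18 of 26 members, where 27.8% of all probe sets were called. It ran from −2.08 ± 0.25 for C6 and −2.02 ± 0.20 for Vtn to 1.65 ± 0.16 for Cfp and 1.88 ± 0.28 for C3ar1.

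Both nodes of the bled rats differed from sham nodes in several members. On the bled side 6 members rose and 1 fell, where 1.91% of probe sets rose and 2.34% fell. On the contralateral side 6 rose and 1 fell, where 2.22% rose and 2.81% fell. Both comparisons use the same 9 sham nodes, so they are not independent of each other. Centring arrays on their medians moved the share of rises among called probe sets from 44.9% to 69.4% on the bled and from 44.1% to 70.4% on the contralateral side.

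**Figure D4:**
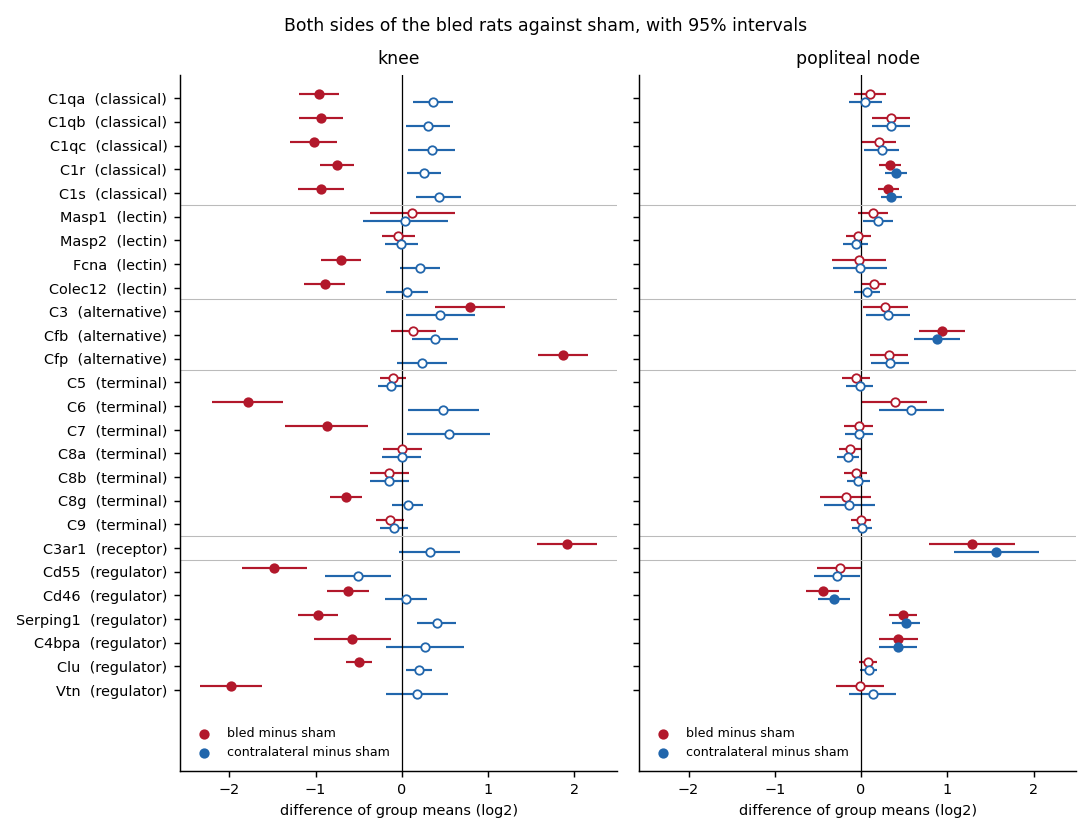
Difference of group means from sham on the log2 scale for the bled (red) and contralateral (blue) side of the bled rats, in knee (left) and popliteal node (right), with 95% intervals from limma; filled points passed an adjusted p of 0.05. In the knee 16 red points are filled below and 3 above 0 and no blue point is filled, while in the node 6 of each colour are filled above and 1 below 0, with Cfb and C3ar1 farthest above sham.

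Cfb was higher in both nodes of the bled rats. It ranged from 6.87 to 7.72 (median 7.28) in sham, from 7.77 to 8.78 (median 8.41) in bled-side and from 7.88 to 8.53 (median 8.25) in contralateral nodes. Neither side overlapped sham. Cfb was 1.91-fold higher on the bled side (1.59 to 2.30, adjusted p = 0.000297) and 1.85-fold higher on the contralateral side (1.53 to 2.22, adjusted p = 0.000395).

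C3ar1 gave the greatest difference of the members in the node. It ranged from 5.25 to 6.51 (median 6.05) in sham, from 6.71 to 8.76 (median 7.12) in bled-side and from 6.76 to 8.65 (median 7.66) in contralateral nodes. All nodes of bled rats lay above all sham nodes. C3ar1 was 2.44-fold higher on the bled side (1.72 to 3.44, adjusted p = 0.00358) and 2.97-fold higher on the contralateral side (2.10 to 4.19, adjusted p = 0.000513).

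Serping1, C1r and C1s, which fell in the bled knee, rose in the node. Serping1 ran from 10.11 to 10.71 in sham, from 10.76 to 11.21 on the bled side and from 10.59 to 11.38 on the contralateral side, 1.40-fold (1.25 to 1.56) and 1.43-fold (1.28 to 1.60) above sham. C1r, at 11.10 to 11.61 in sham and 11.66 to 12.12 in nodes of bled rats, was 1.26-fold (1.16 to 1.38) and 1.32-fold (1.21 to 1.44) higher without overlap. C1s was 1.24-fold (1.14 to 1.36) and 1.27-fold (1.17 to 1.39) higher, and its values overlapped. Of the C1q genes C1qb was near the threshold, at 0.35 ± 0.11 on each side (adjusted p = 0.0584 and 0.055), and passed it with rat as a block (0.0451 and 0.0421; 0.0327 to 0.243 and 0.0304 to 0.432 over alternatives). C1qa differed by 0.10 (−0.09 to 0.28) and 0.05 (−0.14 to 0.24), and C1qc by 0.20 (0.00 to 0.40) and 0.24 (0.04 to 0.44).

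C4bpa also rose in the node, 1.35-fold on the bled side (1.16 to 1.57, adjusted p = 0.0194) and 1.34-fold on the contralateral side (1.15 to 1.56, adjusted p = 0.0214), from a mean of 5.50 in sham, which is under the lowest array median. Cd46 fell, by 0.45 ± 0.09 on the bled side (adjusted p = 0.00575) and by 0.32 ± 0.09 on the contralateral side (0.0401). Its values were 6.63 to 7.75 in sham, 6.33 to 6.86 in bled-side and 6.56 to 6.81 in contralateral nodes. The highest sham value came from rat C2, and without its node the contralateral fall was 0.23 with an adjusted p of 0.0852. That fall was also lost without any of 11 other arrays and with arrays centred on their medians (0.0773; 0.0127 to 0.327 over alternatives).

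C6 and Cfp came near the threshold in the contralateral node and passed it there in some settings. On the bled side neither passed in any setting. C6 differed from sham by 0.39 ± 0.19 on the bled side (adjusted p = 0.241) and by 0.58 ± 0.19 on the contralateral side (0.063, and 0.0495 with rat as a block; 0.0319 to 0.492 over alternatives). Cfp differed by 0.32 ± 0.11 (0.087) and by 0.33 ± 0.11 (0.0696, and 0.0489 with rat as a block; 0.0206 to 0.358). C3 ran from 9.39 to 10.46 in sham and from 9.84 to 10.69 in nodes of bled rats and was not called on either side (adjusted p = 0.203 and 0.155). Fcna, C7, Vtn and Clu, which fell in the bled knee, differed from sham by −0.02, −0.03, −0.01 and 0.08 on the bled side of the node and by −0.01, −0.02, 0.13 and 0.09 on the other, none called. The same holds for Colec12 (0.14 and 0.07), C8g (−0.18 and −0.14), Cd55 (−0.25 and −0.28), Masp1 (0.14 and 0.20) and Masp2 (−0.03 and −0.06).

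**Figure D5:**
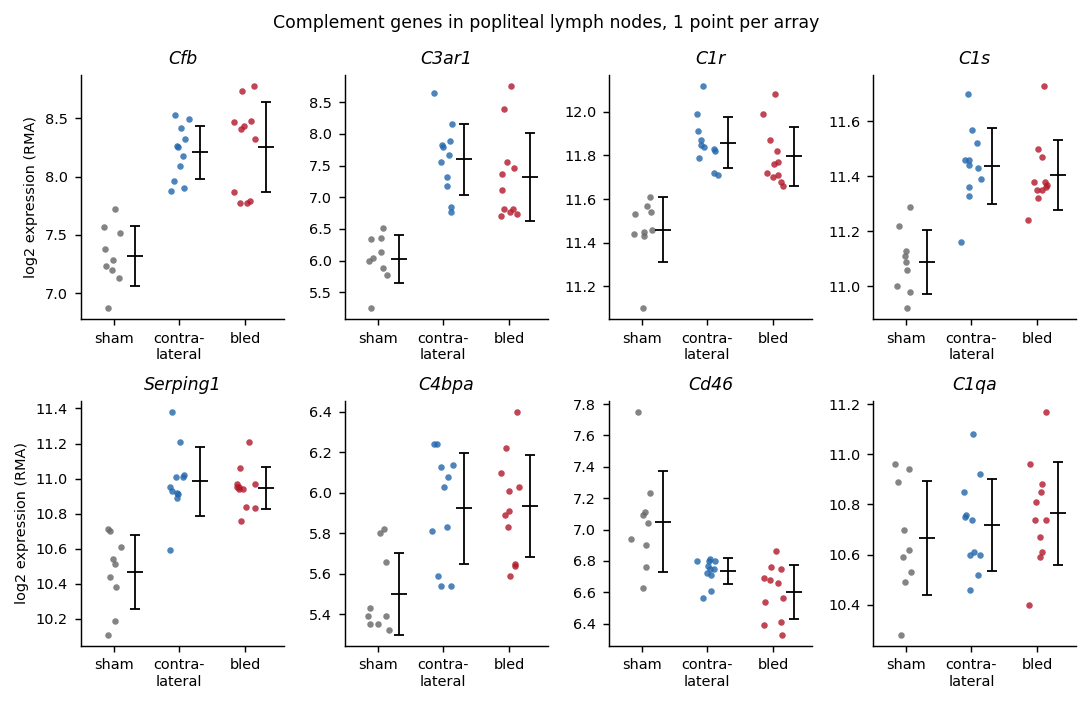
Log2 expression of 8 complement genes in popliteal lymph nodes, 1 point per array, with mean and SD beside each group (9 sham, 11 contralateral, 11 bled); each panel has its own vertical range. Cfb, C3ar1 and C1r lie above all sham nodes on both sides, Cd46 lies lower with 1 sham node at 7.75, and C1qa overlaps throughout.

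Markers of other cells moved in the node as well. The part of these cells in the differences of the complement genes was not tested. Of 9 adipocyte markers 2 rose on the bled and 5 on the contralateral side (list means 7.13 to 9.19 and 8.36 to 9.14, against 7.09 to 8.92 in sham). Of 9 synovial fibroblast markers 2 and 5 rose (9.39 to 10.06 and 9.51 to 10.002, against 8.93 to 9.59). Of 11 macrophage markers 2 and 3 rose (9.67 to 10.45 and 9.66 to 10.45, against 9.38 to 10.11). With the adipocyte mean as a covariate, C4bpa was no longer called on either side: its differences from sham went from 0.43 to 0.35 on the bled side (adjusted p = 0.12) and from 0.42 to 0.29 on the contralateral side (0.339). Cd46 on the contralateral side went from −0.32 to −0.26 and was not called either (0.327). Cfb, C3ar1, C1r, C1s and Serping1 stayed called. Over all alternatives their adjusted p on the contralateral side reached 0.0351, 0.032, 0.0342, 0.0381 and 0.032. The adipocyte mean was itself higher in bled-side and contralateral nodes than in sham (averages 8.40 and 8.69 against 7.88). This fit therefore cannot tell adipocyte content and bleed apart.

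Complement genes outside the 33 members, from a list of 27 of which 25 were measured, were compared in the same way. In the bled knee 7 of the 25 rose and 6 fell against the contralateral side, beside 25.9% and 23.3% of genes with 1 symbol. The rises of 2-fold or more were in Ptx3 (4.12 ± 0.19), a pentraxin that binds C1q, Fcnb (3.60 ± 0.27), a ficolin of neutrophils and monocytes, and the integrin chains Itgam (2.33 ± 0.11), Itgax (1.88 ± 0.14) and Itgb2 (1.63 ± 0.10), which form complement receptors 3 and 4. Fcnb, at 6.74 to 10.04 in contralateral and 10.21 to 11.55 in bled knees, thus rose while Fcna fell. The falls of 2-fold or more were in Vsig4 (−2.13 ± 0.19), the C3b receptor of resident macrophages, Cfd (−1.84 ± 0.16), the factor D gene of adipocytes, and Susd4 (−1.60 ± 0.17). These 8 genes also passed against sham, with differences of 3.98 for Ptx3, 4.31 for Fcnb, 2.77 for Itgam, 2.10 for Itgax, 2.03 for Itgb2, −1.42 for Vsig4, −1.94 for Cfd and −1.59 for Susd4.

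In the contralateral knee Cd93 alone of the 25 was called against sham, at −0.52 ± 0.11 (adjusted p = 0.00821). In the node 4 of the 25 rose on each side, where 1.91% of all probe sets rose on the bled and 2.22% on the contralateral side. These were Vsig4 by 1.61 ± 0.29 and 1.77 ± 0.29, Fcnb by 1.30 ± 0.23 and 1.10 ± 0.23, Itgax by 0.40 ± 0.09 and 0.36 ± 0.09, and C1rl, the C1r-like protease gene beside C1r, by 0.34 ± 0.07 and 0.33 ± 0.07. Vsig4, lower in the bled knee, thus ran from 5.29 to 7.62 in sham nodes and from 7.20 to 9.48 in nodes of bled rats. Cd59b, looked up after the data had been seen because RefSeq lists Cd59 among its other names, encodes the protein that blocks the last step of the attack complex. It rose in the node by 0.69 ± 0.19 on the bled side (adjusted p = 0.0375) and 0.80 ± 0.19 on the contralateral side (0.0157). Sham nodes ran from 6.33 to 8.62 (median 8.26, SD 0.71), a wide spread. Bled-side nodes, at 8.21 to 9.09 (median 8.76), and contralateral nodes, at 8.23 to 9.20 (median 8.82), overlapped them. Alternative fits, such as those leaving out single arrays, were not made for Cd59b. In the knee Cd59b differed from the contralateral side by −0.18 ± 0.09 (0.153), not called.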

How the data were processed

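RNA of 29 knee and 31 popliteal node samples was hybridised to Affymetrix rat gene arrays. The authors deposited log2 expression values for 36685 probe sets, made by robust multi-array averaging (RMA). The software was Affymetrix Expression Console 1.4.46, according to the submitters' processing notes and so per the labels. RMA's options, hybridisation batches and scan dates are not given in the sources used here. Groups, sides and rats were read from the labels. The number of arrays per group, 7 to 11, limits the precision.

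Within each tissue limma 3.58.1 (R 4.3.3, with package data.table, version 1.17.8) fitted a linear model of sham, contralateral and bled samples to every probe set, without filter, covariate or block, with Benjamini-Hochberg adjustment. The side effects of both tissues were compared in a model of all 60 arrays. Intervals are at 95%. Correlations used 100000 permutations in scipy 1.17.1 (Python 3.11.15, numpy 2.4.6, pandas 2.3.3), and figures were drawn with matplotlib 3.10.9. Of 19086 annotated probe sets, 18511 had a single symbol and 575 had several. All measured members are named, other complement genes where called at 2-fold or more in the knee or among the 6 largest elsewhere. Cr1l is named as the neighbour of Cd46. The members, gene lists and comparisons were chosen with earlier results of these data known. The marker lists are of macrophages, neutrophils, adipocytes, synovial fibroblasts, hepatocytes, skeletal muscle, B cells, T cells and endothelium. The B cell list (4 measured genes) gave no call between bled and contralateral knees, and its means lay between 5.28 and 6.49 in knees and between 10.57 and 11.38 in nodes.

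Both sides of a bled rat come from 1 animal, per the labels, so rat pairs them. After subtracting group means, its 2 knees correlated with r between −0.10 and 0.21 (average 0.07) and its 2 nodes with r between 0.12 and 0.32 (average 0.23). Fits with rat as a block were alternatives, as were models of the compared groups alone, quantile normalization, centring on array medians, leaving out dim probe sets, array weights, a robust prior with an intensity trend, marker means as a covariate, and leaving out arrays.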

Additional observations from a re-analysis of the deposited data

Results flagged for a closer look

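The side difference in the knee differed from that in the node, by a test of the difference itself, for 18 members. Knee minus node, it was −2.08 for C6, −2.02 for Vtn, −1.41 for C7, −1.37 for C1qa, −1.34 for Serping1, −1.33 for C1s, −1.33 for C1qc, −1.24 for C1qb, −1.03 for Colec12 and −1.004 for Cd55. For C1r it was −0.95, for Fcna −0.91, for C4bpa −0.85, for Clu −0.69, for C8g −0.67 and for Cd46 −0.54. Cfp, at 1.65, and C3ar1, at 1.88, differed the other way.

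In 4 of 52 sets of sham values, 1 for each member in each tissue, a single array lay far from the others of its group, where chance gives about 1 in 20. Fcna in sham knee C1 was 7.94, with the next value at 8.64. In sham node C2, C1r was 11.10 (next 11.43) and Masp2 was 6.32 (next 5.97). Clu in sham node C9 was 12.75 (next 13.03).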

How the results depend on the processing

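No member difference changed direction where it was called, and the counts of called members kept within 1.5 times their value except in 2 small counts. Members higher in contralateral than sham knees numbered 0 as reported, 3 with only the compared groups fitted, 2 with arrays centred, 1 without dim probe sets, 1 with the intensity trend, 1 with the muscle covariate, and 0 to 1 when single arrays were left out. Members lower in contralateral than sham nodes numbered 1 as reported, 0 with only the compared groups, 0 with quantile normalization, 0 with centring, 2 with array weights, 0 with the adipocyte covariate, and 0 to 1 when single arrays were left out. With rat as a block, 2 members were higher and 16 lower in bled than contralateral knees, as without it (17 lower with rat as a fixed block), and 7 and 9 in place of 6 and 6 were higher than sham in bled-side and contralateral nodes. The block changed no other call than those given with C1qb, C6, Cfp and Cfb. Over all results and settings 6114 values kept their side of the threshold, 43 gained and 29 lost it. Each measured member has 1 probe set, so averaging probe sets per gene changed nothing by construction. Signal over background limits C5, C8a, C8b and C9, and in sham nodes C4bpa. Masp2 in all groups, Cd46 in bled knees and C4bpa in nodes of bled rats lay near the array medians, which limits them too.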
